A study of Mus musculus with 20 samples.

Results

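The potassium channel genes of mouse glial progenitor cells were followed here. They were taken as every gene whose symbol is Kcn, a lower-case letter or letters and a number, which gave 80 of the 18193 genes measured on the arrays. Each gene was read by a single probe set, the one with the highest mean among those that carry no other gene symbol. By what their products do, the 80 genes comprise 22 pore subunits of voltage-gated channels, 9 silent or modifying voltage-gated subunits, 11 auxiliary subunits of voltage-gated channels, 15 inward rectifiers, 12 two-pore channels and 11 calcium-activated channels, their relatives and their auxiliary subunits. The cells came from mouse brain and are labelled as cell lines, in a series titled for transformed glial progenitors. The 20 arrays fall into 4 groups of 5. These are embryonic progenitors as controls, embryonic progenitors that were transduced (a genetic modification), postnatal progenitors as controls, and transformed postnatal progenitors. The labels used here name neither the sequence introduced nor the agent of transformation, and give no strain, age in days or culture condition. Whether the 5 arrays of a group stand for separate cultures is not stated, and the p-values therefore rest on array-to-array spread that may be technical.

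Potassium channels let potassium leave the cell along its gradient and so hold the membrane potential negative. In neural cells the voltage-gated families shape and end action potentials, the inward rectifiers and two-pore channels set the resting potential, and the calcium-activated families open when internal calcium rises. Glial progenitors are known for delayed rectifier and transient A-type currents, and mature astroglia for the inward rectifier conductance that takes up potassium released by neurons.

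Signals are on the linear scale of the deposited table. Background was set on each array at the 95th percentile of its 27 bacterial control probe sets, which lay between 107 and 221. A gene is called present in a group when its signal passed that level on all 5 arrays, mixed when on 1 to 4, and below background when on none. Signals of different genes come from different probes and are not compared with each other. A change was called when the Benjamini-Hochberg adjusted p of limma over all 18193 genes was under 0.05 and the fitted change of log2(signal + 16) was at least 2-fold, two-sided throughout. Where the dimmer group was below background on all 5 arrays, the change is given as a lower bound against that level, and where only some arrays passed background the signals are given. In bulk RNA such as this, fewer cells of a type and less RNA per cell cannot be told apart.

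Several features of the arrays moved with the groups. Postnatal control arrays 4 and 5 had mean log2 signals of 11.4 and 11.3 over 9 genes of cycling cells, against 14.2 to 14.3 on arrays 1 to 3 and 11.6 to 11.8 in the transformed cells. Of 8 markers of oligodendrocyte progenitors, 6 fell in the embryonic response. The summed signal of the 8 was 211716 to 235321 in the embryonic controls and 97436 to 106733 in the transduced cells. It was 275556 to 406629 in the postnatal controls and 254966 to 269836 in the transformed cells. Against postnatal controls, the transformed cells were called lower for 2 of the 8. Mean signals went from 35805 to 2943 for Gpr17 and from 19780 to 4314 for Nkx2-2. Among 7 markers of mature oligodendrocytes, Cnp was called lower in transduced cells, and Cnp, Mbp and Mag in transformed cells, each against its controls. Of 12 neuronal markers, 11 fell in the embryonic response, with summed signals of 93816 to 99102 in controls and 26849 to 29009.9 in transduced cells. In the postnatal response 3 neuronal markers rose and 3 fell, with summed signals of 83357 to 95978 and 102993 to 109541. The brightest genes weigh most in such sums, and Gap43 went from a mean of 18760 to 50374. The mean log2 signal of the 12 neuronal markers was 11.12 to 11.35 in postnatal controls and 10.99 to 11.35 in transformed cells. Astrocyte markers fell for 3 of 8 genes in the embryonic response. The summed signals of the 8 were 88888 to 103766 in controls and 101781 to 119272 in transduced cells. Their mean log2 signals were 11.04 to 11.26 and 10.45 to 10.91. In the postnatal response 2 astrocyte markers rose and 4 fell, with sums of 56659 to 159033 in controls and 131604 to 136364 in transformed cells. Their mean log2 signals were 10.95 to 13.58 and 10.76 to 11.39. All 8 oligodendrocyte progenitor markers were present in every group but the transduced cells, where 5 were, and of the neuronal markers 12, 8, 11 and 10 were present in embryonic control, transduced, postnatal control and transformed cells. The part of these shifts in the channel values was not tested.

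A smaller share of the potassium channel genes than of all genes was present. In the embryonic controls 32 of 80 were present (40%, against 63.6% of all genes), in the transduced cells 26 (32.5%, against 63.2%), in the postnatal controls 34 (42.5%, against 63.1%) and in the transformed cells 33 (41.2%, against 65.4%). There were 13 genes present in all 4 groups, 35 in 1 to 3 groups and 32 in none. The 13 were the pore subunits Kcna6, Kcnc1, Kcnd2, Kcnd3, Kcnh2 and Kcnh3, the auxiliary subunits Kcnab2 and Kcnip3, the inward rectifiers Kcnj6 and Kcnj11, the two-pore channels Kcnk1 and Kcnk2, and Kcnmb4, an auxiliary subunit of the large-conductance calcium-activated channel. Kcna5, Kcne2, Kcnmb1 and Kcnv2 were below background on all 20 arrays, and no other member was. The map of arrays above background shows which genes moved across that level.

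**Figure D1:**
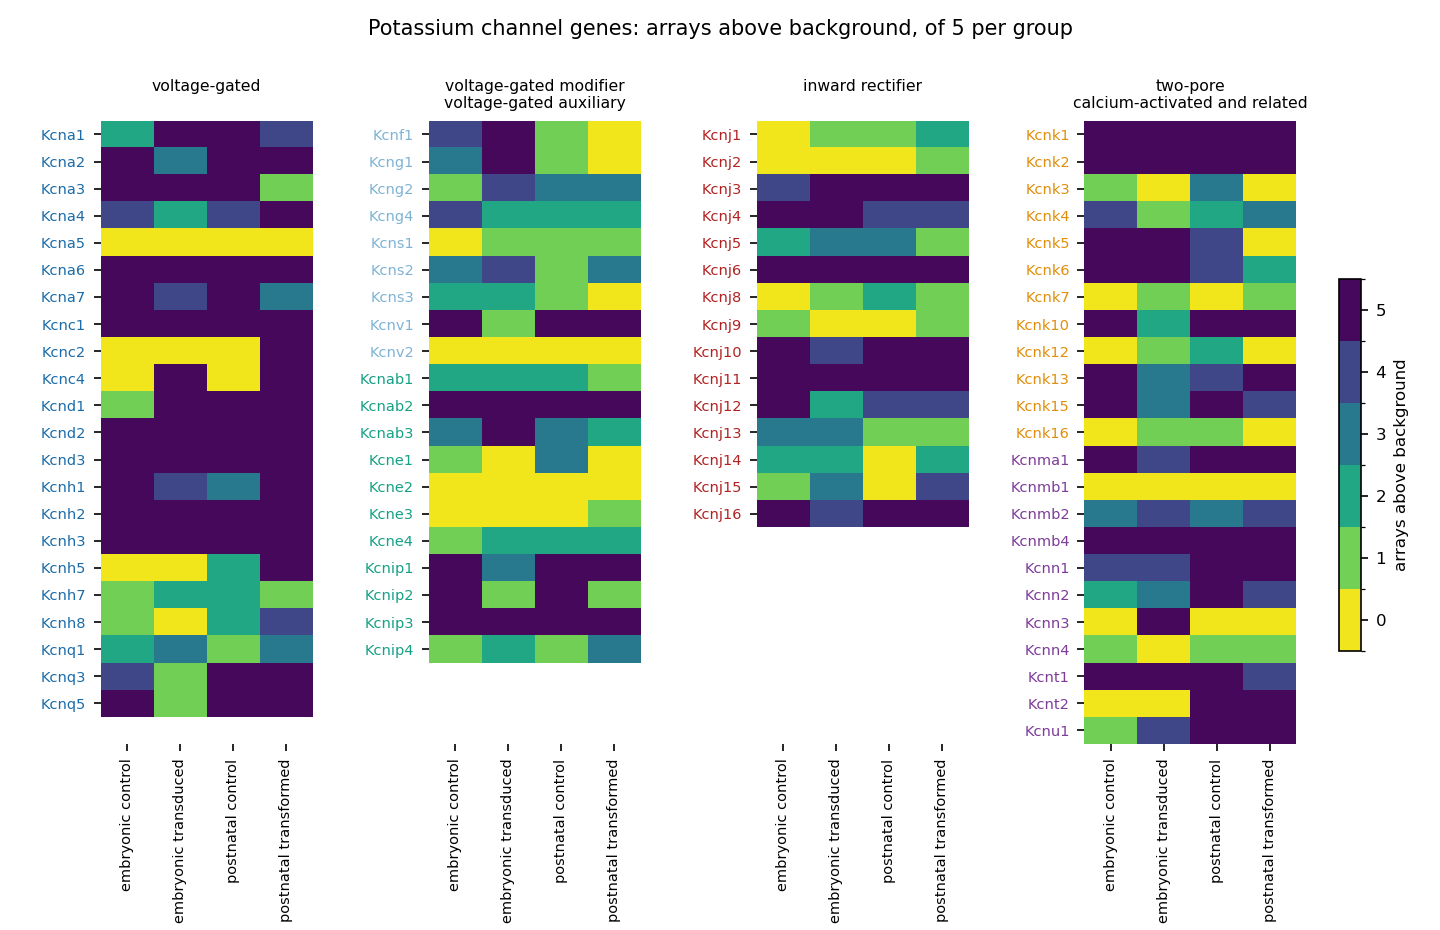
Number of arrays above background, of 5 in each group, for the 80 potassium channel genes, with subfamilies in separate columns and gene names coloured by subfamily. Dark cells mark genes above background on all 5 arrays; Kcnc4 is dark in the 2 modified groups and at 0 arrays in both control groups, and Kcnn3 is dark in the embryonic transduced cells only.

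In the embryonic response, transduced against control, 12 of 80 potassium channel genes rose and 12 fell. These are 15% and 15% of the members, beside 8.61% and 5.74% of all genes tested. In the postnatal response, transformed against control, 13 rose and 7 fell, or 16.2% and 8.75%, beside 9.56% and 6.4% of all genes. The median change of the 80 genes was -0.002 in the embryonic and 0.083 in the postnatal response on the log2 scale, beside 0.075 and -0.0024 over all genes. With quantile normalization the medians of the members were -0.23 and 0.12, beside -0.022 and 0.0085 over all genes. Without that normalization, the medians over the 48 members above background in a group were -0.32 and 0.11. The 13051 genes that passed the same filter had medians of 0.043 and -0.023. Quantile normalization gave 10 rises and 15 falls in the embryonic response, and centring on the 75th percentile gave 11 and 14. Counts over all 18193 genes moved the same way, from 1567 rises and 1044 falls to 1333 and 1271 with quantile normalization. They were 1367 and 1200 with centring on the 75th percentile. The inward rectifiers had 1 called gene among 15 in the embryonic response and 0 in the postnatal response, where Kcnj16 was the single gene at an unadjusted p under 0.05. The bars of calls by subfamily show these counts.

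**Figure D2:**
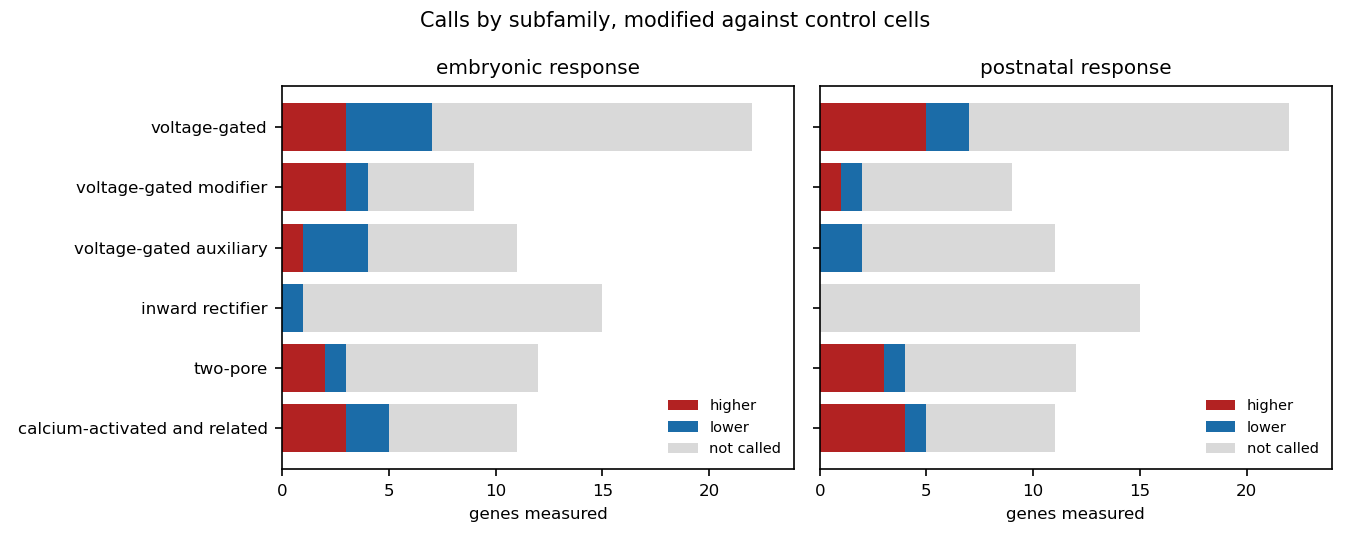
Genes measured in each subfamily, divided into those called higher, called lower and not called in the modified cells against their controls, for the embryonic and the postnatal response. The voltage-gated pore subunits hold 3 higher and 4 lower genes in the embryonic response and 5 and 2 in the postnatal one, while the inward rectifiers hold 1 called gene in all.

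**Figure D3:**
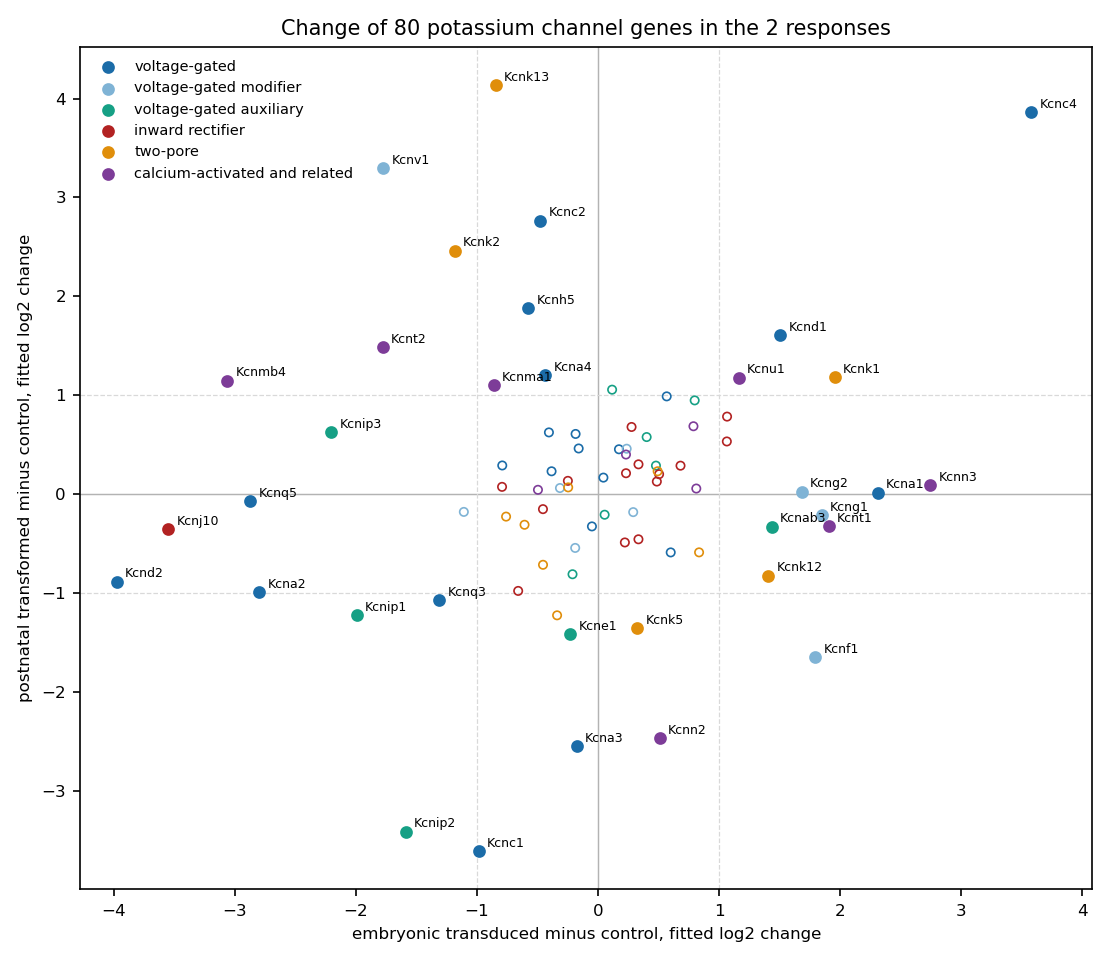
Fitted log2 change of the 80 genes in the embryonic response (horizontal) and the postnatal response (vertical), coloured by subfamily, with filled, named points for genes called in either. Dashed lines mark 2-fold; points for genes near background, such as Kcnt2 in embryonic cells, carry fitted values only. Kcnc4 lies high on both axes, whereas Kcnmb4, Kcnk2 and Kcnv1 lie left of 0 and above it.

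The largest group, the voltage-gated pore subunits, had 3 rises and 4 falls in embryonic cells (13.6% and 18.2%). In postnatal cells it had 5 rises and 2 falls (22.7% and 9.09%). Over all genes the shares were 8.61% and 5.74% in the embryonic response and 9.56% and 6.4% in the postnatal one. They serve for each subfamily below, and whether a subfamily departs from them was not tested. Kcnd2 and Kcnd3 encode pore subunits of A-type channels, which open briefly and inactivate fast. Kcnd2 read 15464, 13933, 18446, 15236 and 13824 on the 5 embryonic control arrays and 1396, 864, 758, 978 and 901 on the transduced arrays. The groups lay far apart, with a change of -3.97 ± 0.13 (SE; adjusted p = 7.06e-16, limma), and 2 other probe sets of Kcnd2 fell too. Its postnatal signals were 16329.9, 17041, 20680.3, 15097 and 12622 in controls and 8539.8, 7914, 8640.0, 9334 and 9370.3 in transformed cells. All transformed arrays were lower, but the change of -0.88 ± 0.13 stayed under 2-fold; without postnatal control arrays 4 and 5 it was -1.03 and passed. Kcnd3 read 16822, 15837, 16469, 15578 and 15036 in embryonic controls and 9701, 9359, 8963, 8563 and 9499.8 in transduced cells. It read 13669.7, 16951, 13956, 9246 and 9053 in postnatal controls and 14049, 14202, 16280.2, 14900.1 and 15304 in transformed cells. Every transduced array was below every embryonic control array, yet the change of -0.79 ± 0.12 was under 2-fold, as was 0.29 ± 0.12 in postnatal cells, where the groups overlapped.

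Kcnd1, the third gene of that A-type family, rose in both responses. Its signal was 115, 178, 263, 194 and 102 on embryonic control arrays, of which 1 passed background, and 519, 459, 643, 428 and 420.1 on transduced arrays, of which all did. Postnatal controls read 339, 296, 441, 438 and 179.9 and transformed cells 1258, 913, 988, 1104 and 881. Neither pair of groups overlapped, with adjusted p of 8.52e-05 in the embryonic response and a change of 1.61 ± 0.27 (adjusted p = 3.28e-05, limma) in the postnatal response. The embryonic call rests on this probe set: with the mean of all probe sets its adjusted p was 0.598, and another probe set gave -0.48.

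Kcnc genes encode fast delayed rectifiers of the kind used by fast-firing neurons, and Kcnc4 an inactivating member. Kcnc4 read 55.3, 194, 77.4, 83.8 and 65.9 on embryonic control arrays and 1298, 1278, 1204, 1043 and 1264 on transduced arrays. The postnatal arrays repeated this, at 60.3, 73.3, 43.4, 139 and 41.9 in controls and 1213, 1394, 1015, 1136 and 1149.7 in transformed cells. Kcnc4 was below background on all 10 control arrays and above it on all 10 modified arrays, and was at least 7.27-fold higher in transduced embryonic cells (adjusted p = 1.8e-09, limma) and at least 7.92-fold higher in transformed postnatal cells (adjusted p = 4.63e-10). The probe set is of a kind that can match several transcripts; a second, dimmer probe set of Kcnc4 rose as well in both responses, on 1 and 2 arrays above background in the modified groups. The 2 responses of Kcnc4 differed by 0.28 ± 0.42 (adjusted p = 0.657).

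Kcnc1 and Kcnc2 moved in opposite directions in postnatal cells. Kcnc1 read 3301, 4058, 3031, 2389.8 and 2516 in postnatal controls and 265, 313, 175, 197 and 233 in transformed cells. It fell, with a change of -3.61 ± 0.14 (adjusted p = 1.57e-14, limma), with no overlap, and 2 of 3 other probe sets fell as well. In embryonic cells it read 6495, 7744, 6515, 7417 and 7479 in controls and 3629, 3089, 3686, 3852 and 3711 in transduced cells, a difference of -0.99 ± 0.14 with no overlap, just under 2-fold. It passed 2-fold without control array 1 or 3 or transduced array 4, at -1.02, -1.02 and -1.01. Kcnc2 was below background on all 15 arrays of the other groups, at 25.9, 135, 27.5, 157 and 26.6 in embryonic controls, 11.4, 25.3, 155, 38.4 and 20.9 in transduced cells and 78.9, 7.83, 76.3, 71.1 and 128 in postnatal controls. It read 379, 475, 584, 493 and 626 in transformed postnatal cells, at least 3.4-fold above the postnatal controls (adjusted p = 0.000233, limma).

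The Kcna genes encode Shaker-type delayed rectifiers, of which Kcna3 is known in progenitor and immune cells and Kcna1 and Kcna2 in axons. Kcna1 read 345, 269, 108, 195 and 56.2 in embryonic controls, 2 of them above background, and 900.0, 763, 673, 1038 and 1119 in transduced cells, all above it. The groups did not overlap (adjusted p = 7.84e-05, limma). Postnatal signals of Kcna1 overlapped, at 350.4, 477, 162, 336 and 356 in controls and 352, 417, 499.7, 374 and 123 in transformed cells. Kcna2 went the other way in embryonic cells, from 1381, 1320.0, 1659, 1485 and 1549 in controls to 279, 336, 112, 216 and 129.9 in transduced cells, of which 3 passed background (adjusted p = 3.81e-10). Its postnatal arrays read 3209.7, 3847, 3486, 4401 and 4293 in controls and 2201, 1877, 1675, 1778 and 2118 in transformed cells, lower on every array but by -0.99 ± 0.21, just under 2-fold; leaving out control array 1 or 3 or transformed array 1 or 5 took it past 2-fold, at -1.05, -1.02, -1.04 and -1.02.

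Kcna3 changed in postnatal cells. It read 602, 742, 648, 422 and 411 in postnatal controls and 51.8, 11.6, 140.0, 143 and 166 in transformed cells, of which 1 array passed background (adjusted p = 2.67e-05, limma). The embryonic arrays overlapped, at 274, 359, 224, 279 and 444 in controls and 280.2, 391, 312, 168 and 250.3 in transduced cells. On the probe set used here Kcna6 did not change by 2-fold in either response: it read 594, 392, 373, 347 and 370.0 and 248, 209, 347, 415 and 371 in embryonic control and transduced cells, and 1318, 1495, 1525, 1284 and 1463 and 1615, 1688, 1614, 1643 and 1754 in postnatal control and transformed cells. Its signals divided by age instead, with no postnatal array under 1284 and no embryonic array above 594. The probe set of Kcna6 with the largest interquartile range fell in embryonic cells (-1.39, adjusted p = 0.000859). Kcna4, an A-type member, went from a mean of 238 ± 120.5 (SD, n = 5) in postnatal controls to 542 ± 166 in transformed cells (1.20 ± 0.39, adjusted p = 0.0162). The postnatal call was lost without transformed array 2 (adjusted p = 0.0508) and without postnatal control arrays 4 and 5 (adjusted p = 0.126). Kcna5 was near the floor of the arrays, at 9.7, 31, 22, 71.8 and 15 in embryonic controls, 38.3, 19.7, 11.9, 28.4 and 79.2 in transduced cells, 89.1, 43.4, 7.85, 61 and 131 in postnatal controls and 86.3, 123, 131, 105 and 16.3 in transformed cells.

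Kcnq genes carry the slow M-current, and Kcnh genes the ether-a-go-go family. Kcnq5 read 559, 695, 605, 598 and 554 in embryonic controls and 199, 192, 20.1, 26 and 46.9 in transduced cells, where 1 array passed background (adjusted p = 5.5e-06, limma). In postnatal cells its signals overlapped, at 721, 1058, 687, 504 and 521 and 680.0, 524, 501, 719.7 and 827. Kcnq5 fell on this probe set only; another, with more spread over the arrays, gave adjusted p = 0.744. Kcnq3 went from 279 in embryonic controls, 4 arrays above background, to 111 in transduced cells, 1 above (adjusted p = 0.0308). That call was lost without control array 1, 3 or 5 or transduced array 2, 4 or 5, with adjusted p from 0.0601 to 0.102. Kcnh5 was absent from embryonic cells, at 69, 12.2, 53, 57.3 and 3.12 in controls and 4.22, 73.2, 31.1, 2.09 and 4.71 in transduced cells. In postnatal cells Kcnh5 rose from 265, 126, 145, 144 and 139.6, with 2 arrays above background, to 386, 727, 767, 682 and 648, with all 5 above (adjusted p = 0.00237, and 0.0546 with an offset of 1 in place of 16). Kcnh2, the pore subunit of a delayed rectifier best known from heart, read 718, 735, 715, 835 and 967, 733, 925, 786, 1069 and 627, 595, 554, 659.9, 696 and 754 and 729, 755, 768, 809 and 604 in embryonic control, embryonic transduced, postnatal control and postnatal transformed cells; the groups overlapped and neither response was called. Kcna7, Kcnh1, Kcnh3, Kcnh7, Kcnh8 and Kcnq1 were not called in either response.

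**Figure D4:**
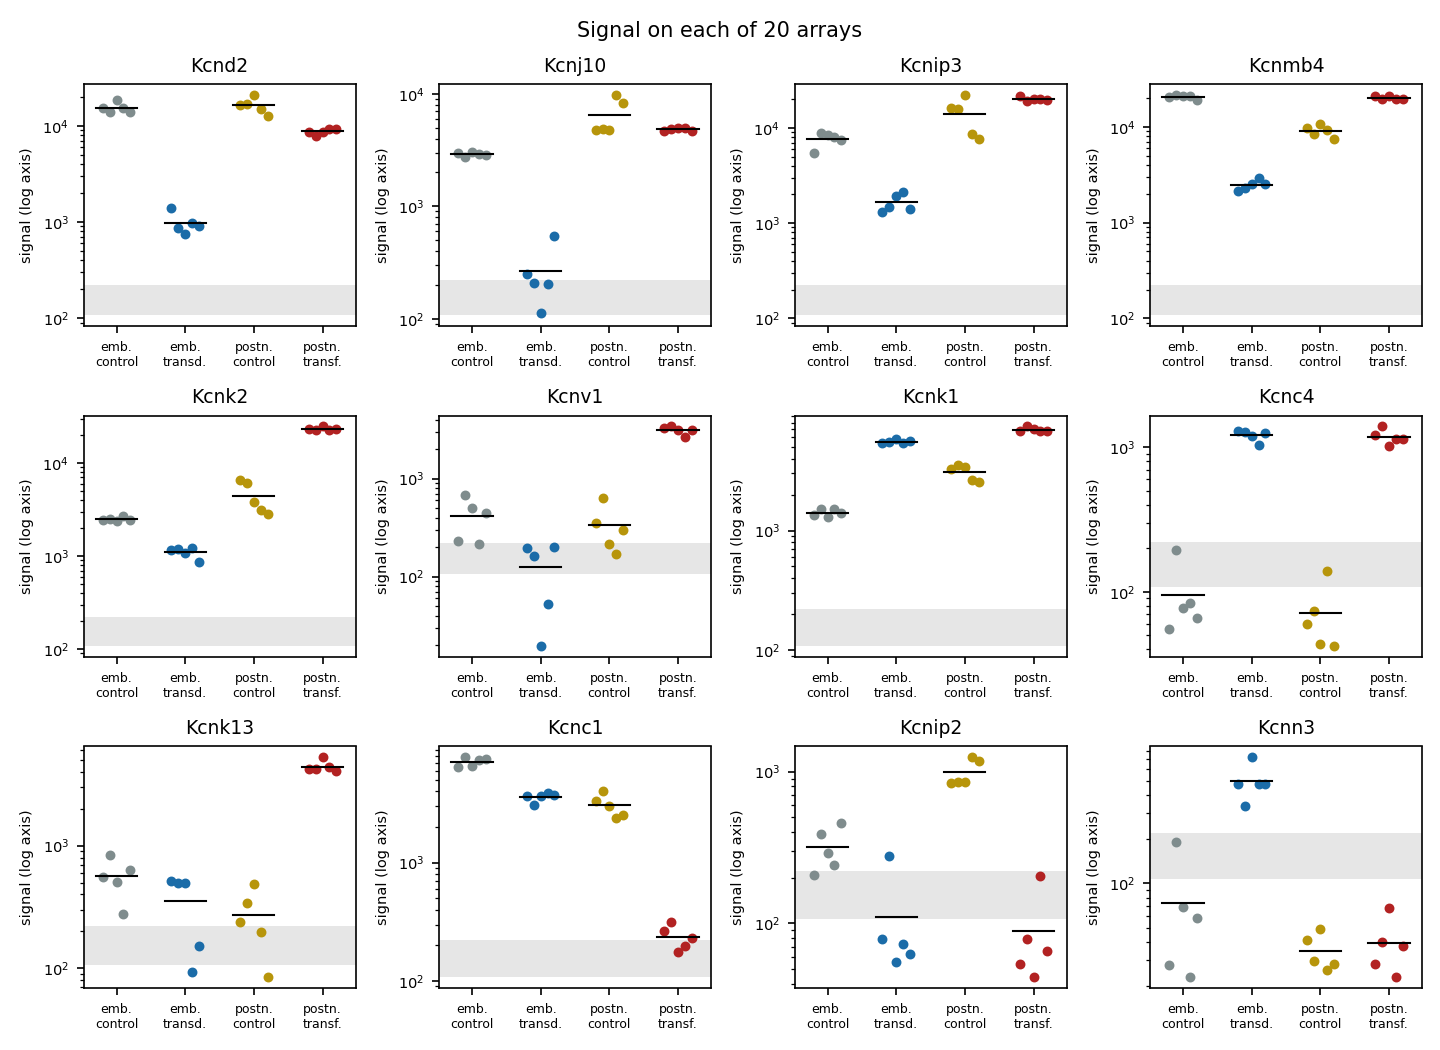
Signal of 12 potassium channel genes on each of the 20 arrays, on log axes that differ between panels, with a black line at the mean of each group of 5 and a grey band for the range of background over the arrays. Kcnd2, Kcnj10 and Kcnip3 are lowest in the embryonic transduced cells. Kcnc4 and Kcnk1 are higher in both modified groups, and Kcnk13 and Kcnk2 are highest in the postnatal transformed cells.

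The silent subunits, Kcnf, Kcng, Kcns and Kcnv, form no channel alone and modify other voltage-gated channels when they join them. They had 3 rises and 1 fall among 9 in embryonic cells (33.3% and 11.1%). In postnatal cells they had 1 of each (11.1% and 11.1%). Kcnv1 read 230.2, 677, 495, 216 and 446 in embryonic controls, all above background, and 195, 163, 19.4, 52.2 and 202 in transduced cells, 1 above (adjusted p = 0.00276, limma). In postnatal cells it went the other way, from 353, 629, 217, 170.0 and 296 in controls to 3293, 3395, 3092, 2666 and 3117 in transformed cells, a rise of 3.30 ± 0.45 (adjusted p = 2.49e-06) without overlap. The postnatal rise was called with both other probe sets of Kcnv1 and the embryonic fall with neither, and with the mean of the probe sets the fall was -0.88.

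Kcnf1 moved oppositely to Kcnv1. It read 209, 303, 145, 193 and 271 in embryonic controls and 827, 709.7, 888, 693 and 878 in transduced cells, a rise of 1.80 ± 0.38 (adjusted p = 0.000551, limma) without overlap. Postnatal signals were 87.9, 119, 134, 73.9 and 11.5 in controls, of which 1 passed background, and 17.4, 8.78, 22.7, 6.83 and 7.88 in transformed cells, all below it (adjusted p = 0.00116). Kcng1 read 165, 97.3, 121, 302 and 159.9 in embryonic controls and 418, 529, 769.8, 784 and 627 in transduced cells, higher on all 5 (adjusted p = 0.00257). Its postnatal arrays overlapped near background, at 82.3, 238, 34.8, 25.8 and 84.9 and 58.3, 29.5, 84.9, 27.3 and 156. With the mean of all probe sets neither embryonic rise was called, with adjusted p of 0.108 for Kcnf1 and 0.312 for Kcng1. Kcng2 went from 127, 1 array above background, to 510.4, 4 above, in embryonic cells (adjusted p = 0.00545). Kcng4, Kcns1, Kcns2, Kcns3 and Kcnv2 were not called in either response.

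The auxiliary subunits of voltage-gated channels had 1 rise and 3 falls among 11 in embryonic cells (9.09% and 27.3%). In postnatal cells they had 2 falls (18.2%). The Kcnip genes encode calcium-binding partners of the Kcnd channels, and Kcnip3 also a transcriptional repressor. Kcnip3 read 5416, 8773, 8439.7, 8131 and 7419 in embryonic controls and 1301, 1472, 1946, 2143 and 1411 in transduced cells, a change of -2.20 ± 0.22 (adjusted p = 3.11e-08, limma) that its other probe set shared. On the postnatal arrays it read 16122, 15897, 21934, 8661 and 7603 in controls and 21480.4, 19022, 20216, 20297 and 19589.6 in transformed cells, which overlapped through control array 3. The postnatal change of 0.63 ± 0.22 was not called and was 0.18 without control arrays 4 and 5, its lowest arrays.

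Kcnip2 fell in both responses. It read 207, 386, 292, 241 and 459.9 in embryonic controls and 78.5, 278, 55.4, 72.5 and 62.4 in transduced cells, where array 2 alone passed background and lay among the controls (adjusted p = 0.00235, limma). Postnatal signals were 839, 853, 854, 1241 and 1184 in controls and 53.6, 78.9, 44, 205 and 65.5 in transformed cells, without overlap (adjusted p = 2.49e-07). Other probe sets of Kcnip2 carried neither call. Kcnip1 read 967, 674, 908, 811 and 698 in embryonic controls and 26.7, 397, 64.6, 349.9 and 699.7 in transduced cells, of which 3 passed background and array 5 reached the control range (adjusted p = 0.00297). Its postnatal arrays read 906, 1049, 1404, 1363 and 1359.6 in controls and 473, 489, 621, 454 and 504 in transformed cells, all lower, with a change of -1.22 ± 0.51 and an adjusted p of 0.0593, which was not called. It was called lower with an offset of 64 (adjusted p = 0.0222), over genes above background in a group (0.0455), with the mean of all probe sets (0.00129), with the probe set of largest interquartile range (a change of -2.27, adjusted p = 0.000144) and with only the postnatal arrays in the fit (0.00012).

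The Kcnab genes encode cytoplasmic subunits of the Kcna channels, and the Kcne genes small membrane partners. Kcnab2 read 579, 635, 534, 569 and 925 in embryonic controls and 966, 1001, 1133, 1360.2 and 1169 in transduced cells. It read 673, 719, 797, 589 and 529 in postnatal controls and 1425, 1173, 1181, 1427 and 1209 in transformed cells. Every modified array exceeded every control array of its age, by 0.80 ± 0.16 and 0.95 ± 0.16, in both cases under 2-fold; without postnatal control array 3 the postnatal change was 1.02 and passed. Kcnab3 went from 208 in embryonic controls, 3 arrays above background, to 497 in transduced cells, all above (adjusted p = 0.0415, limma). The call was lost without control array 2 or 3 or transduced array 3, 4 or 5, with adjusted p from 0.0729 to 0.146. Kcne1 was called lower in postnatal cells at 135, 3 arrays above background, against 32.3, none above (adjusted p = 0.0324). It was lost without control array 1, 3, 4 or 5 or transformed array 1, 3 or 5, with adjusted p up to 0.0818, and without control arrays 4 and 5 together (adjusted p = 0.147). Kcnab1, Kcne2, Kcne3, Kcne4 and Kcnip4 were not called in either response, and none of them was present in any group.

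Among the inward rectifiers Kcnj10, the main potassium-buffering channel of glia, was the called gene on the probe sets used here. It read 2966, 2758, 3035, 2890.2 and 2849 in embryonic controls and 253, 209, 112, 205 and 542 in transduced cells, where 4 of 5 arrays passed background. The change was -3.55 ± 0.26 (adjusted p = 2.72e-10, limma), with every transduced array far below the controls. Its postnatal signals were 4809.5, 4817, 4779, 9660.2 and 8315 in controls and 4678, 4852, 4919, 4978 and 4689 in transformed cells. The transformed arrays lay beside control arrays 1 to 3 and below arrays 4 and 5, and the change of -0.35 ± 0.26 was not called (adjusted p = 0.318). Its partner subunit Kcnj16 read 446, 456, 376, 288 and 314 in embryonic controls and 272, 191, 267, 199 and 226 in transduced cells. Postnatal signals of Kcnj16 were 1928, 1949, 1561, 1092 and 997 in controls and 744, 535, 817, 809 and 776 in transformed cells. Neither pair of groups overlapped, and the changes of -0.66 ± 0.22 (adjusted p = 0.0196) and -0.98 ± 0.22 (adjusted p = 0.000839) were under 2-fold. Without postnatal control arrays 4 and 5 the postnatal change of Kcnj16 was -1.29, and single arrays 4 or 5 of the controls, or 3, 4 or 5 of the transformed cells, left out gave -1.0 to -1.11, past 2-fold. Kcnj16 was called lower in both responses with the mean of its probe sets, at -1.18 in embryonic cells (adjusted p = 0.00298) and -1.13 in postnatal cells (adjusted p = 0.00399). With the probe set of largest interquartile range the embryonic change was -1.70 (adjusted p = 0.0119).

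Kcnj11, the pore of the ATP-sensitive channel, had mean signals of 6683 ± 1360.3, 8653 ± 2747, 5558 ± 1247 and 6872 ± 1653 (SD, n = 5) in embryonic control, transduced, postnatal control and transformed cells. Neither response of Kcnj11 was called, at 0.34 ± 0.21 and 0.30 ± 0.21. Kcnj6, a G-protein-gated channel, was present throughout at means of 491, 419, 353 and 386. Kcnj2, the classical strong rectifier, was near the floor, at 6.38, 11.6, 9.72, 21 and 8.09 in embryonic controls, 9.37, 10.8, 28.1, 12.8 and 20.6 in transduced cells, 12.7, 43.9, 15.5, 6.34 and 4.92 in postnatal controls and 11.6, 159.7, 5.69, 5.49 and 7.37 in transformed cells, with 1 array above background. Kcnj3, Kcnj4 and Kcnj12 were present in at least 1 group and not called. Kcnj1, Kcnj5, Kcnj8, Kcnj9, Kcnj13, Kcnj14 and Kcnj15 were present in none.

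Two-pore channels carry background, or leak, current. They had 2 rises and 1 fall among 12 in embryonic cells (16.7% and 8.33%). In postnatal cells they had 3 rises and 1 fall (25% and 8.33%). Kcnk1, a weak leak channel of many tissues, read 1361, 1522, 1288, 1507 and 1394 in embryonic controls and 5366, 5452, 5847, 5386 and 5579 in transduced cells, a rise of 1.96 ± 0.09 (adjusted p = 5.05e-14, limma). In postnatal cells it read 3291, 3534, 3428, 2651 and 2546 in controls and 6825, 7416, 7107, 6759 and 6828 in transformed cells, a rise of 1.19 ± 0.09 (adjusted p = 1.78e-10). The groups were apart in both ages, and the second probe set rose too. The difference of the responses, -0.77 ± 0.12, was under 2-fold.

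Kcnk2, a leak channel opened by stretch, heat and fatty acids, moved in opposite directions. It read 2428, 2534, 2407, 2669 and 2443 in embryonic controls and 1157, 1181, 1071, 1211 and 871 in transduced cells, a change of -1.18 ± 0.17 (adjusted p = 5.57e-06, limma). In postnatal cells it rose from 6560.2, 6026, 3769, 3116 and 2851 in controls to 23165, 22839, 24675, 22864 and 22993 in transformed cells, by 2.46 ± 0.17 (adjusted p = 7.82e-11). Neither pair overlapped, although the postnatal controls themselves ranged over more than 2-fold. Kcnk13, a channel known from microglia, read 239, 338, 488, 199.8 and 84.7 in postnatal controls and 4188, 4242, 5219, 4352 and 4031 in transformed cells. Its rise of 4.13 ± 0.44 (adjusted p = 6.67e-08) was the largest of any fitted between groups that were both above background on at least 4 arrays in that response. The other probe set of Kcnk13 did not carry the call, and in neither postnatal group was it above background on all 5 arrays. Under the alternatives tried the rise was 2.07 to 4.39 and stayed called. Embryonic arrays read 555, 837, 502, 276 and 636 in controls and 518, 499.7, 496, 93.6 and 151 in transduced cells and overlapped. Of 8 microglial markers 1, P2ry12, rose in the same comparison, from 166 to 1364, and none fell. Csf1r was above background on all 5 arrays of every group. It was not called, at 600 in postnatal controls and 569 in transformed cells. Aif1 and Itgam were below background in all 4 groups. The summed signal of the list, P2ry12 included, was 1045 to 1651 in controls and 2208 to 2826 in transformed cells. That sum holds the rise of P2ry12, while the median change of the 8 markers was -0.16 on the log2 scale.

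Kcnk12, a silent relative of Kcnk13, was called higher in embryonic cells at 34.4, no array above background, against 115, 1 array above (adjusted p = 0.0175, limma). That call was lost without embryonic control array 4 (adjusted p = 0.0556). Kcnk5, an alkali-activated leak channel, went from 257 in postnatal controls, 4 arrays above background, to 77.6 in transformed cells, none above. It was at least 1.17-fold lower (adjusted p = 0.0446), and the call was lost without any one of control arrays 1 to 4 or transformed arrays 3 to 5, with adjusted p from 0.0801 to 0.123. Kcnk5 was not called with the mean of its probe sets (adjusted p = 0.441). Kcnk5, Kcnk16 and Kcnma1 are the 3 members on chromosome 14. The 354 genes of that chromosome with mean signals over 500 had a median postnatal change of -0.86, against -0.037 for 10486 such genes elsewhere, and a median difference between transformed and transduced cells of -0.87, against -0.045; the part of that shift in the values of the 3 members was not tested. Kcnk3, Kcnk4, Kcnk6, Kcnk7, Kcnk10, Kcnk15 and Kcnk16 were not called in either response.

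The calcium-activated group had 3 rises and 2 falls among 11 in embryonic cells (27.3% and 18.2%). In postnatal cells it had 4 rises and 1 fall (36.4% and 9.09%). Kcnma1 is the pore of the large-conductance channel and Kcnmb4 its main partner in brain. Kcnmb4 read 20760.1, 21331, 21323, 21298 and 19364 in embryonic controls and 2155, 2279, 2565, 2902 and 2564 in transduced cells, a change of -3.06 ± 0.09 (adjusted p = 3.57e-17, limma). In postnatal cells it rose from 9667, 8376, 10836, 9297 and 7408 in controls to 20888, 19705, 21047, 19387 and 19399.6 in transformed cells, by 1.15 ± 0.09 (adjusted p = 3.12e-10). Neither pair overlapped. Kcnma1 read 487, 556, 415, 815 and 471 in embryonic controls and 372, 395, 239, 430.4 and 124 in transduced cells, which overlapped, with a change of -0.86 ± 0.27 that was not called. Its postnatal arrays read 695, 467, 690.2, 415 and 535 in controls and 1201, 1214, 1203, 1091 and 1285 in transformed cells, a rise of 1.10 ± 0.27 (adjusted p = 0.00193) without overlap. A second probe set of Kcnma1 rose by 1.61 ± 0.20. With the mean of all 5 probe sets the adjusted p was 0.086. Without postnatal control arrays 4 and 5 the change was 0.96, under 2-fold, and without transduced array 4 the embryonic change of -1.0 passed.

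The Kcnn genes encode small-conductance channels and Kcnn4 the intermediate one. Kcnn3 read 27.9, 190.4, 68.8, 23.2 and 58 in embryonic controls and 477, 335, 717, 474 and 475 in transduced cells, at least 2.88-fold higher (adjusted p = 5.49e-06, limma). Postnatal signals of Kcnn3 were below background on all 10 arrays, at 41.2, 29.6, 49.2, 25.7 and 28.1 in controls and 28.1, 39.9, 67.6, 22.9 and 37.5 in transformed cells. Kcnn2 read 2185, 1963, 349, 451 and 426 in postnatal controls and 219, 22, 158, 118 and 285 in transformed cells. It fell without overlap, with a change of -2.47 ± 0.57 (adjusted p = 0.00107), and control arrays 1 and 2 were several times brighter than arrays 3 to 5. Its embryonic arrays overlapped, at 79.1, 203, 132, 253 and 360.1 and 260.1, 193, 198, 371 and 367. Kcnn4 read 142, 137, 72.5, 72.5 and 229.6 in embryonic controls, 54.4, 58, 116, 126 and 70 in transduced cells, 58.1, 338, 64.7, 43.9 and 51.6 in postnatal controls and 89.4, 40.9, 316, 35.5 and 81 in transformed cells, with at most 1 array above background in a group.

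Kcnt1 and Kcnt2 encode sodium-activated channels. Kcnt1 read 326, 280.4, 397, 317 and 243 in embryonic controls and 1134, 1457, 1138, 1048 and 1275 in transduced cells, a rise of 1.91 ± 0.24 (adjusted p = 1.19e-06, limma) that a second probe set shared. Another, dim probe set did not (adjusted p = 0.787), and the postnatal arrays overlapped at 392, 336, 294, 220.3 and 269 in controls and 219, 123, 273, 321 and 293 in transformed cells. Kcnt2 was below background on all 10 embryonic arrays, at 78.8, 172, 79.6, 97 and 118 in controls and 9.14, 25.5, 43, 28 and 3.99 in transduced cells, so its embryonic call carries no fold. In postnatal cells Kcnt2 rose from 274, 566, 615, 477 and 445 to 1181, 1160.4, 1104, 1839.8 and 1425, by 1.49 ± 0.33 (adjusted p = 0.000658) without overlap. Kcnu1, a relative known from sperm, was called higher in both responses: 128, 1 array above background, to 268, 4 above, in embryonic cells (adjusted p = 0.0222) and 1.18 ± 0.40 in postnatal cells (adjusted p = 0.0194). The embryonic call was lost without control array 1 or 3 or transduced array 4, with adjusted p from 0.0601 to 0.0798, and the postnatal call without control array 2 (adjusted p = 0.0523). Kcnmb1, Kcnmb2 and Kcnn1 were not called in either response.

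The responses share no arrays with each other and can be set side by side. Higher in both were 4 genes, Kcnc4, Kcnd1, Kcnk1 and Kcnu1, or 33.3% of the 12 embryonic and 30.8% of the 13 postnatal rises. Lower in both was Kcnip2, or 8.33% of the 12 embryonic and 14.3% of the 7 postnatal falls. Lower in embryonic and higher in postnatal cells were Kcnk2, Kcnmb4, Kcnv1 and Kcnt2, the last below background in embryonic cells. Kcnf1 was called the other way, but its postnatal fall rests on 1 control array above background and no transformed array, and came to -0.89, under 2-fold, with an offset of 64. No such counts over all genes are given here to set beside these shares. Whether the shared or opposite calls are particular to the channel genes was not tested. The difference of the responses, postnatal minus embryonic, was tested in its own right. It was positive and called for 15 of 80 genes and negative and called for 10, beside 9.36% and 9.75% of all genes. The positive differences included those of Kcnv1 (5.07 ± 0.63, adjusted p = 1.06e-06, limma), Kcnk13 (4.98 ± 0.62), Kcnmb4 (4.21 ± 0.12), Kcnk2 (3.64 ± 0.24) and Kcnt2 (3.27 ± 0.46). Among the negative ones were those of Kcnc1 (-2.62 ± 0.20, adjusted p = 1.07e-09), Kcnn2 (-2.98 ± 0.80) and Kcna3 (-2.38 ± 0.59). Kcnt2, Kcnc2 (3.24 ± 0.77), Kcnn3 (-2.66 ± 0.55) and Kcnf1 (-3.44 ± 0.54) have groups below background on every array, so their fitted differences depend on the offset of 16 and have no place in that order. With an offset of 1 the difference of Kcnf1 was -4.30, and with 64 it was -2.49.

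The stretch before the annotated start is shown for 2 genes that rose in both responses and 2 that moved in opposite directions, to set their letters beside their signals. All are 250 bases, 5′ to 3′ on the gene's strand, from RefSeq on build GRCm38.p6: Kcnc4 at chr3:107458899-107459148 on the minus strand, Kcnk1 at chr8:125994852-125995101 on the plus strand, Kcnmb4 at chr10:116473524-116473773 on the minus strand and Kcnk2 at chr1:189402274-189402523 on the minus strand, the first of 4 starts listed. Capitals mark the GC box GGGCGG on either strand.
Kcnc4: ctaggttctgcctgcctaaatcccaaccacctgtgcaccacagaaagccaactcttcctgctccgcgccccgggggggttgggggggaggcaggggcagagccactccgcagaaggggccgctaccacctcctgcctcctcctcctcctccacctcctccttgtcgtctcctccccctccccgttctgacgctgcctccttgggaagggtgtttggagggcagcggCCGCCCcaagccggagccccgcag
Kcnk1: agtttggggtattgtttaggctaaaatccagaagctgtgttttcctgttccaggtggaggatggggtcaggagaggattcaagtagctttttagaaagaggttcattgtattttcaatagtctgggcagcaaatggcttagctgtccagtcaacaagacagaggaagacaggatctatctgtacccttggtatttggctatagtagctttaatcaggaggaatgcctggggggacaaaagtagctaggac
Kcnmb4: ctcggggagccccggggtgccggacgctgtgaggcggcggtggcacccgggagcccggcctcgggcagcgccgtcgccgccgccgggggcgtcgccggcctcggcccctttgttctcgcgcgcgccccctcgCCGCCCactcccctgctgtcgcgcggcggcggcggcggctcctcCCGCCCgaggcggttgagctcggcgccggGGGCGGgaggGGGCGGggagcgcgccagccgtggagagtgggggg
Kcnk2: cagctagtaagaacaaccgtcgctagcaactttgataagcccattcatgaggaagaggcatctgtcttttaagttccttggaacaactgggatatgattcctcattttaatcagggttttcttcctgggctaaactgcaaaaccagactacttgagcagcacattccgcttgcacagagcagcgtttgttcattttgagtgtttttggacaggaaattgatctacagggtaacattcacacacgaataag
The stretch before Kcnc4 has 1 GC box and 68.0% G and C, and that before Kcnk1 none and 44.4%. Before Kcnmb4 there are 4 GC boxes and 83.6%, and before Kcnk2 none and 42.4%. Of the other genes called in both responses, Kcnip2, lower in both, had 2 GC boxes and 66.8%. Kcnf1, called oppositely, had none and 51.2%. Kcnd1, Kcnu1 and Kcnv1, also called in both, had no promoter in the list used, and Kcnt2 was left out. The genes described are a few picked ones, and a link between the motif and the direction of change was not tested. RefSeq lists 86 promoters for 61 of the potassium channel genes, and 38 of the 86, or 44.2%, held a GC box, beside 32.7% of all 32851 promoters of that length. The TATA box TATAAA was in 3.49% of the 86 and 12.4% of all promoters, the E-box CACGTG in 5.81% and 6.02%, the AP-1 motif TGANTCA in 4.65% and 6.75%, and the cyclic AMP response element TGACGTCA in 0 of the 86 and 1.55% of all, each searched on both strands. A match is a description of these letters and shows no binding.

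Age was compared within controls and within modified cells. These comparisons use the same arrays as the responses and are given as values of their own. In the controls, 13 of 80 genes were higher in postnatal cells and 4 lower, beside 4.86% and 5.72% of all genes. In the modified cells 22 were higher in postnatal and 11 lower, beside 11.7% and 13.7%. The voltage-gated pore subunits held 4 higher and 1 lower in controls, and 10 higher and 3 lower in modified cells. The medians of the 80 genes were 0.044 and -0.028, beside -0.039 and -0.14 over all genes; with quantile normalization they were 0.065 and 0.2, beside -0.032 and 0.0013, so the sign of the median of the members in modified cells depends on the scaling.

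Control cells of the later age had more Kcna6 (1.76 ± 0.18, adjusted p = 1.54e-07, limma), Kcnj16 (1.92 ± 0.22), Kcna2 (1.36 ± 0.21), Kcnk1 (1.11 ± 0.09), Kcnk10 (1.59 ± 0.32), Kcnip2 (1.63 ± 0.39) and Kcnq3 (2.30 ± 0.47). Kcnt2 was at least 2.74-fold higher, from no embryonic control array above background to all postnatal ones. Kcnu1 went from 128, 1 array above background, to 578, all above. Less abundant in postnatal controls were Kcnmb4 (-1.20 ± 0.09), Kcnc1 (-1.24 ± 0.14) and Kcnf1, at 224 and 85.2, the latter with 1 array above background. With the mean of all probe sets Kcnc1 (-0.85) and Kcna2 (0.79) came under 2-fold and Kcnip2 was not called (0.72, adjusted p = 0.106); with an offset of 64 Kcnf1 came just under 2-fold. Postnatal control array 5 mattered here: without it the falls were 2, and without arrays 4 and 5 Kcnf1 was -0.87. Kcnj10 was higher by 1.08 ± 0.26, but by 0.92 without array 4, 0.98 without array 5 and 0.73 without both, under 2-fold. Kcnn2 was also higher in postnatal controls, with all 5 arrays above background against 2 in embryonic controls. Called near background in controls were Kcnh5, Kcnk12 and Kcnv2, the last below background in both groups. Kcnk12 lost the call without embryonic control array 1, 2, 3 or 4 or postnatal control array 1 or 2. Kcnv2 lost it without embryonic control array 2 or 4 or postnatal control array 2, 3 or 5. The adjusted p reached 0.142 for Kcnk12 and 0.129 for Kcnv2.

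Modified cells differed more between ages. The transformed postnatal cells exceeded the transduced embryonic cells in Kcnk2 (4.40 ± 0.17, adjusted p = 2.54e-15, limma), Kcnj10 (4.28 ± 0.26) and Kcnip3 (3.62 ± 0.22). Higher there too were Kcnd2 (3.17 ± 0.13), Kcnmb4 (3.01 ± 0.09), Kcna6 (2.37 ± 0.18) and Kcnma1 (2.0 ± 0.27). The groups did not overlap in these 7, nor in most called members, with 31 of 33 without overlap. No such count over all genes is given here. Kcnt2 was at least 7.15-fold, Kcnh5 at least 3.39-fold and Kcnc2 at least 2.74-fold higher. Lower in the transformed postnatal cells were Kcnc1 (-3.86 ± 0.14) and Kcnt1 (-2.28 ± 0.24), and by bounds Kcnf1 (at least 5.39-fold), Kcnk5 (at least 4.46-fold), Kcng1 (at least 4.13-fold) and Kcnn3 (at least 3.27-fold). Also higher were Kcna2, Kcna4, Kcnj16, Kcnk10, Kcnk13, Kcnq3, Kcnq5, Kcnu1 and Kcnv1, and also lower Kcna1, Kcna3 and Kcnab3. The calls of 5 further genes depended on single arrays. Kcng2 was lost without transduced array 3, 4 or 5 or transformed array 1 or 5, and Kcnip1 without transduced array 1 or 3 or transformed array 3 or 5, with adjusted p up to 0.0989 and 0.115. Kcnh8 was lost without transduced array 1 (adjusted p = 0.062) and Kcnk16 without transduced array 4 (adjusted p = 0.0665). Kcnd1 came under 2-fold without transduced array 4 or 5 or transformed array 1, at 1.0, 0.99 and 0.97. With the probe set of largest interquartile range Kcnma1, Kcnq5 and Kcnt1 were not called (adjusted p = 0.126, 0.371 and 0.203), and with the mean of all probe sets Kcnip1 was not (0.167). The plot of both age comparisons sets these values side by side.

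**Figure D5:**
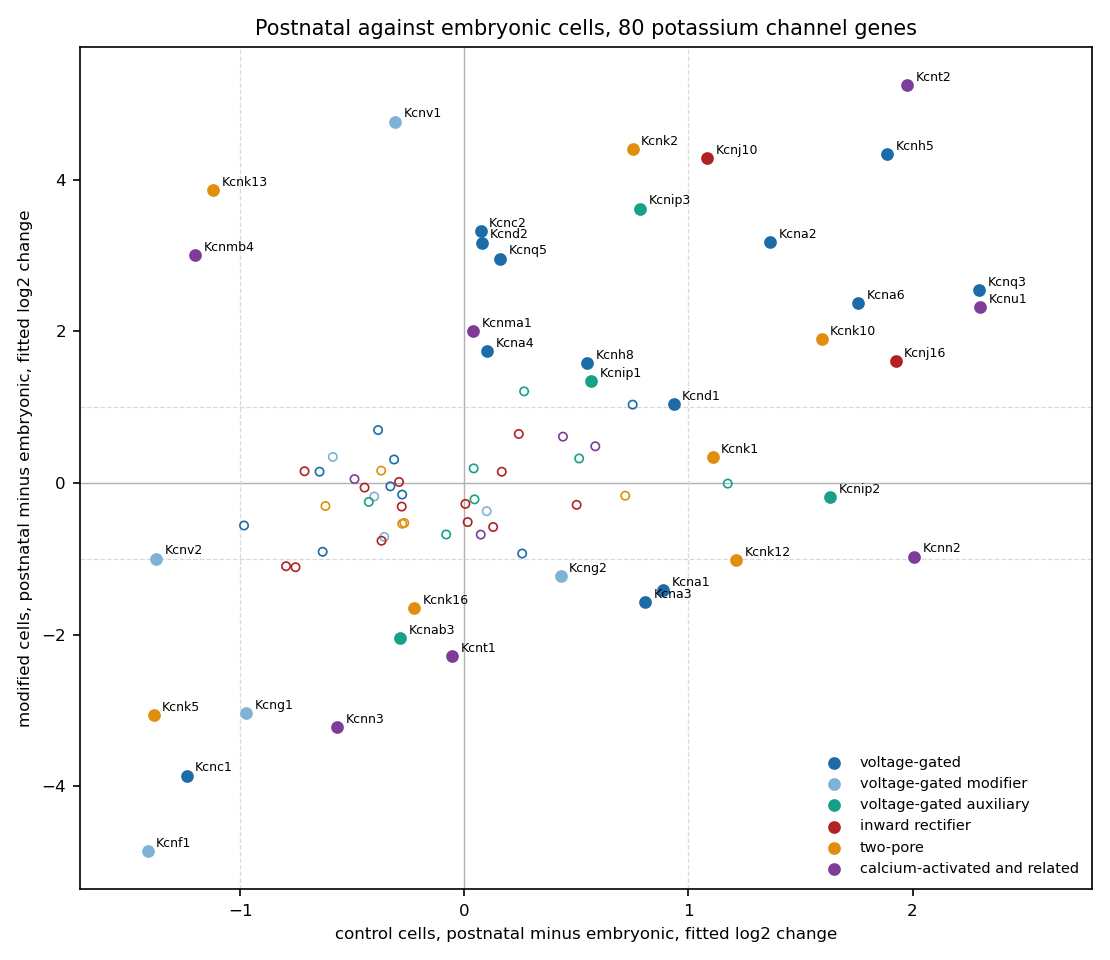
Fitted log2 change of the 80 genes from embryonic to postnatal cells in controls (horizontal) and in modified cells (vertical), coloured by subfamily, with filled, named points for genes called in either and dashed lines at 2-fold. Kcnv1, Kcnk13 and Kcnmb4 are below 0 in controls and above 3 in modified cells. Points of genes with a group below background, Kcnf1 among them, move with the offset.

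Other probe sets of the same genes gave a partial check. There were 45 members with more than 1 probe set. Of 16 genes called in the embryonic response with another probe set, 9 had another that was above background on all arrays of a group, and 8 of these 9 had one with the same call. In the postnatal response these numbers were 12, 7 and 6, and no other probe set carried the opposite call in either response. The exceptions were Kcnv1 in embryonic and Kcnip2 in postnatal cells. Kcnq3 was not called in embryonic cells with the mean of all probe sets (adjusted p = 0.451), nor Kcne1 in postnatal cells (0.101), while Kcnab2 passed 2-fold in postnatal cells (1.28). With the probe set of largest interquartile range Kcna1 (1.34) was called higher and Kcnd2 (-1.01) lower in postnatal cells, and Kcnn4 (-1.79) lower in embryonic cells.

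Proteins that partner or depend on these channels were listed as well. Of 17 partners measured, 1 rose and 3 fell in embryonic cells, and 1 rose and 1 fell in postnatal cells, beside 8.61% rising and 5.74% falling among all genes for the embryonic response and 9.56% and 6.4% for the postnatal one. Dpp6 and Dpp10, membrane partners of the Kcnd channels, fell with Kcnd2 in embryonic cells: Dpp6 with a change of -2.02 ± 0.18 (adjusted p = 9.21e-09, limma), and Dpp10 from 735 to 56.1, below background on all 5 transduced arrays. Amigo1 rose by 1.12 ± 0.31, and Akap5, an anchoring protein, changed by -1.84 ± 0.19 in postnatal cells. Of 16 genes of the sodium pump and potassium cotransport, 3 rose and 1 fell in embryonic cells and 4 rose and 1 fell in postnatal cells. Atp1b1, a pump subunit, rose in both, by 3.31 ± 0.27 and 1.84 ± 0.27, as did the cotransporter Slc12a5, by 1.64 ± 0.18 and 1.65 ± 0.18. Fxyd6, a pump regulator, fell in both, with changes of -1.79 ± 0.10 and -1.92 ± 0.10, and Slc12a2, a cotransporter, rose by 2.03 ± 0.10 in postnatal cells.

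Channels for other ions were counted the same way. Over all genes 8.61% rose and 5.74% fell in the embryonic response, and 9.56% and 6.4% in the postnatal one. Whether these short lists depart from those shares was not tested. Of 11 voltage-gated sodium channel genes, 2 fell in embryonic cells and 0 were called in postnatal cells by limma, where 4 had an unadjusted p under 0.05. Scn3b changed by -2.11 ± 0.15 and Scn3a went from 266 to 16.3, below background on all transduced arrays. Of 21 voltage-gated calcium channel genes, 2 rose and 3 fell in embryonic cells, among them Cacna1c at 1.47 ± 0.26, and 2 rose in postnatal cells, Cacnb4 by 1.27 ± 0.28 and Cacng5 by 2.49 ± 0.68. Of 2 hyperpolarization-activated channel genes, Hcn3 fell in postnatal cells, from 571 to 200.2, with 3 of 5 transformed arrays above background.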

How the data were processed

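Total RNA of 20 samples of mouse brain progenitors, labelled as cell lines, was measured on single-colour arrays of 45101 probe sets. The deposited values are intensities on a linear scale, 1 per probe set and array; the software that made them is not given in the sources used here. From the values, the mean of each array after leaving out 2% of probe sets at each end is 2500.01 to 2500.02, so the deposited intensities had been scaled to a common trimmed mean. That scaling holds the bulk of each array level and cannot show a change in total RNA. The number of arrays limits the precision. Between 61.3% and 73.2% of probe sets passed background on an array, and no 2 arrays were identical.

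Probe sets were named from the platform annotation: 34945 carry 1 symbol, 932 several, and 9160 are not listed in it. Control probe sets (64) were left out. The probe set with the highest mean over the 20 arrays represented each of 18193 genes. RefSeq held all 80 members. Of its 92 genes that match the naming pattern, 12 are not analysed here, among them a gene of the rule for named genes.

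Log2(signal + 16) was fitted with limma 3.58.1 (R 4.3.3; lmFit and eBayes with an intensity trend) as 4 group means over all 20 arrays. The comparisons were the 2 responses, their difference and the 2 age comparisons, each adjusted by Benjamini-Hochberg across the 18193 genes. A change is on the log2(signal + 16) scale, which understates changes of dim genes. Every member is accounted for. Signals on every array are given for members called in a response and present in the brighter group (at most 8 each way per response), for the 5 largest called differences of the responses each way, and for a set list of known channels. Members and lists were chosen with earlier results of these data known. Alternatives were normalization, offset, probe set rule, filter on dim genes, trend, arrays in the fit, fold threshold, replicate block, and leaving out arrays. Same-numbered arrays of different groups did not deviate together (correlations of -0.053 to 0.032), so the main fit used no pairing. That check cannot exclude that same-numbered arrays share a source, which the labels do not state. The ratio of 3′ to 5′ probe sets differed little between groups, at -0.38, -0.30, -0.46 and -0.55 (log2) for Gapdh and 0.32, 0.42, 0.25 and 0.28 for Actb in embryonic control, transduced, postnatal control and transformed cells.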

Additional observations from a re-analysis of the deposited data

Results flagged for a closer look

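In 86 groups of 5 arrays, over the 34 members whose arrays are given one by one, 6 held an array far from the other 4, where chance gives about 1 in 20. These were Kcnmb4 at 19364 on embryonic control array 5, Kcnk2 at 24675 on postnatal transformed array 3, Kcnh5 at 386 on postnatal transformed array 1, Kcnc1 at 3089 on embryonic transduced array 2, Kcnj16 at 535 on postnatal transformed array 2 and Kcna6 at 594 on embryonic control array 1. None of these arrays crossed into the opposite group of its response.

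The responses of the 2 ages differed, by the test of the difference itself (postnatal minus embryonic, limma over all 20 arrays), for 25 members. Among voltage-gated pore subunits the differences were -2.30 for Kcna1, 1.81 for Kcna2, -2.38 for Kcna3, 1.64 for Kcna4, -2.62 for Kcnc1, 3.24 for Kcnc2, 3.09 for Kcnd2, 1.08 for Kcnd3, 2.45 for Kcnh5 and 2.80 for Kcnq5. Among silent and auxiliary subunits they were -3.44 for Kcnf1, -2.07 for Kcng1, 5.07 for Kcnv1, -1.82 for Kcnip2 and 2.83 for Kcnip3. The inward rectifier Kcnj10 differed by 3.20, and the two-pore channels Kcnk2, Kcnk12 and Kcnk13 by 3.64, -2.23 and 4.98. In the calcium-activated group the differences were 1.96 for Kcnma1, 4.21 for Kcnmb4, -2.98 for Kcnn2, -2.66 for Kcnn3, -2.23 for Kcnt1 and 3.27 for Kcnt2. Kcnd2, Kcnj10, Kcnip3, Kcna2 and Kcnq5 fell in embryonic cells and were not called in postnatal cells, while Kcnk13 and Kcnc2 rose in postnatal cells and were not called in embryonic cells. The difference of Kcnd3 came under 2-fold without postnatal control array 4 (0.98), array 5 (0.97) or both (0.80), and that of Kcna4 was not called without both (adjusted p = 0.0845). With the mean of all probe sets the difference was not called for Kcng1 (-0.55), Kcnip2 (-0.81), Kcnma1 (0.78), Kcnq5 (0.74) and Kcnd3 (0.41), with adjusted p from 0.094 to 0.55, and that of Kcna2 was 0.89, under 2-fold. With the probe set of largest interquartile range it was not called for Kcna1 (-1.69), Kcna4 (1.52), Kcnt1 (-0.34), Kcnma1 (-0.19) and Kcnq5 (-0.20), with adjusted p from 0.0725 to 0.902. The values of Kcnc2, Kcnf1, Kcng1, Kcnh5, Kcnk12, Kcnn3 and Kcnt2 involve groups below background on every array and depend on the offset.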

How the results depend on the processing

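Counts of called members stayed within 1.5 times the values reported under the alternatives tried, with these exceptions. Without postnatal control arrays 4 and 5, as without array 5 alone, members lower in postnatal than in embryonic controls numbered 2 in place of 4, and over single arrays left out that count ran from 2 to 6. Over all genes the same count was 667 without both arrays and 836 without array 5, in place of 1041. Members present in the transduced embryonic cells numbered 45 when 3 of 5 arrays were enough. With the probe set of largest interquartile range, 5 values changed sign and were not called: Kcnd1 in the embryonic response (-0.48, adjusted p = 0.648), Kcnk5 in the postnatal response (0.32, 0.729), Kcnma1 in the postnatal response (-0.26, 0.725) and in the difference (-0.19, 0.869), and Kcnq5 in the difference (-0.20, 0.902); that setting reads other probe sets, many of them dim. The replicate block gave 10 rises and 12 falls in the embryonic response and 13 and 7 in the postnatal one; it lost Kcnab3 (0.051) and Kcnu1 (0.0537) in embryonic cells and no other of the 152 values given per gene. Background limits the dim members: those near 107 to 221 have no measured order.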

Other observations

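Transcripts named for channel loci but outside the naming rule moved as well. Kcnq1ot1, the long noncoding RNA read antisense to Kcnq1 and known for imprinted silencing, had signals of 444 ± 64.7 (SD, n = 5) in embryonic controls, 4506 ± 596 in transduced cells, 744 ± 69.7 in postnatal controls and 271 ± 40 in transformed cells. It rose by 3.30 ± 0.15 in the embryonic response (adjusted p = 1.16e-13, limma) and changed by -1.41 ± 0.15 in the postnatal one. Its host gene Kcnq1 was present in no group. Kcnmb4os2, an RNA listed opposite to Kcnmb4, had 3599 ± 569 in embryonic controls, 432 ± 86.1 in transduced cells, 1311 ± 203 in postnatal controls and 1659 ± 219.6 in transformed cells. It changed by -3.02 ± 0.15 in the embryonic response, where Kcnmb4 changed by -3.06 ± 0.09, and by 0.34 ± 0.15 in the postnatal one, not called, where Kcnmb4 rose by 1.15 ± 0.09. Kcne1l, a relative of the Kcne auxiliary subunits, had 4300.4 ± 606 in embryonic controls and 113 ± 107 in transduced cells, with 5 and 1 arrays above background (adjusted p = 3.58e-06). In postnatal cells it had 1001 ± 1019.5 and 79.7 ± 111, with 4 and 1 arrays above background (adjusted p = 0.00141). These RNAs were named after their values were seen.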
